A study of Mus musculus with 6 samples.

Results

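The genes of the cytosolic ribosome were described on 6 Affymetrix exon arrays of mouse embryoid bodies. Genes were taken by name, as Rpl or Rps followed by a number, Rplp0 to Rplp2, or Rpsa. This rule gave 79 of the 19613 genes of the table, 48 named for the large subunit and 31 for the small subunit. Rpl3l, Rpl7l1, Rpl39l and Rps27l, 4 of the 79, are paralogues, gene copies related to a member whose name they extend. Measured values had no part in the rule.

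Embryoid bodies are clusters formed by embryonic stem cells in culture, here of a mouse line that the series title calls HBG3 HB9 and the study's methods HGB3, in which the promoter of the motor neuron gene Hb9 (Mnx1) drives a green fluorescent protein. They had been differentiated towards spinal motor neurons and served as indicator cells, cultured cells whose gene expression is read after exposure to blood fluid. In all 6 samples this fluid came from mice of the strain B6CBA-Tg(HDexon1)62Gpb/3J. Per the study's methods these were male carriers at a pre-symptomatic age, and the fluid was a small share of the medium until the next day. This strain models Huntington's disease and carries a transgene of the first exon of human huntingtin. The fluid is serum in the series title and in the study's methods but plasma in the sample labels. The arrays are 1 group, with replicates 2, 4, 5, 6, 7 and 8 as their titles number them. Control arrays were not analysed here, so the values are levels under this serum and their spread over arrays, not a response to it.

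A ribosome consists of a large and a small subunit, each built from ribosomal RNA and a set of proteins. The small subunit reads the messenger RNA, and the large subunit joins amino acids and releases the new chain through an exit tunnel. Most of the proteins are present once per ribosome, and their messenger RNAs are abundant in nearly every cell. Many of these messenger RNAs begin with a run of pyrimidines, the terminal oligopyrimidine start, through which mTOR signalling controls their translation.

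Start sites are shown to let the genes described below be compared at the base where transcription is annotated to begin. Each run has 15 bases on either side of the junction between upstream sequence and transcript, 5′ to 3′, from RefSeq on GRCm38.p6. In the first 4 runs the capitals mark an annotated start base C and the 4 pyrimidines that follow it.
Rpl38, chr11:114668565-114668594, plus strand: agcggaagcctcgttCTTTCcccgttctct
Rps6, chr4:86857353-86857382, minus strand: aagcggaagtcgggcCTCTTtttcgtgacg
Rps27, chr3:90213634-90213663, minus strand: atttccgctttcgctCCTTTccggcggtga
Rplp2, chr7:141447636-141447665, plus strand: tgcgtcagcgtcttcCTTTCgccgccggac

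In the next 3 runs, from genes that also vary or stand out below, the capital marks the annotated start base alone, since the motif is not at that base.
Rpl41, chr10:128549154-128549183, minus strand: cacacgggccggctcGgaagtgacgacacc
Rpl39, chrX:37085208-37085237, minus strand: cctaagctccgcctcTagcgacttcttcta
Rpsa, chr9:120127751-120127780, plus strand: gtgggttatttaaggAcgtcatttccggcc

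Of the 79 genes, 58 had a start in the promoter table, and 13 of these 58 (22.4%) had a C at the annotated base followed by 4 bases that were each C or T, read on the strand of the gene. The same was true of 813 of all 27025 genes of that table, or 3.01%. The large subunit had 7 such genes among 36 and the small subunit 6 among 22. An annotated start can lie a few bases from the start used by the cell, so the absence of the motif says only that these letters are not at that base.

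The 6 defining motor neuron genes matched by name, among them Mnx1, Isl1 and Chat, were above background, as were all 7 markers of proliferating cells. Of the markers matched by name, 4 of 5 for neural progenitors, 2 of 6 for pluripotent cells, 5 of 6 for glia, 4 of 7 for non-neural cells and 1 of 5 for blood were above background. Foxa2, the highest of the non-neural list at 10.53, is not specific to non-neural cells. Background here is the 95th percentile of the mean log2 intensity over 1021 olfactory receptor genes, or 7.48. This level was passed by 65.1% of all genes, so the marker counts alone do not show which cell types were present. In a batch checked in the study's methods only part of the cells were fluorescent, so the embryoid bodies are mixtures. A lower value in a culture cannot be assigned to fewer cells of a type or to less RNA per cell. The array medians over all genes lay between 8.21 and 8.28 on the log2 scale. The precision is limited by the number of arrays.

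Nearly all ribosomal protein genes gave strong signal. Of the 79, 77 were above background, against 65.1% of all genes, and 57 lay above 95% of all genes. The median level was 12.02 on the log2 scale for the large subunit and 11.28 for the small subunit. Intensities of different genes also depend on their probes, so these levels do not rank amounts of transcript.

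**Figure D1:**
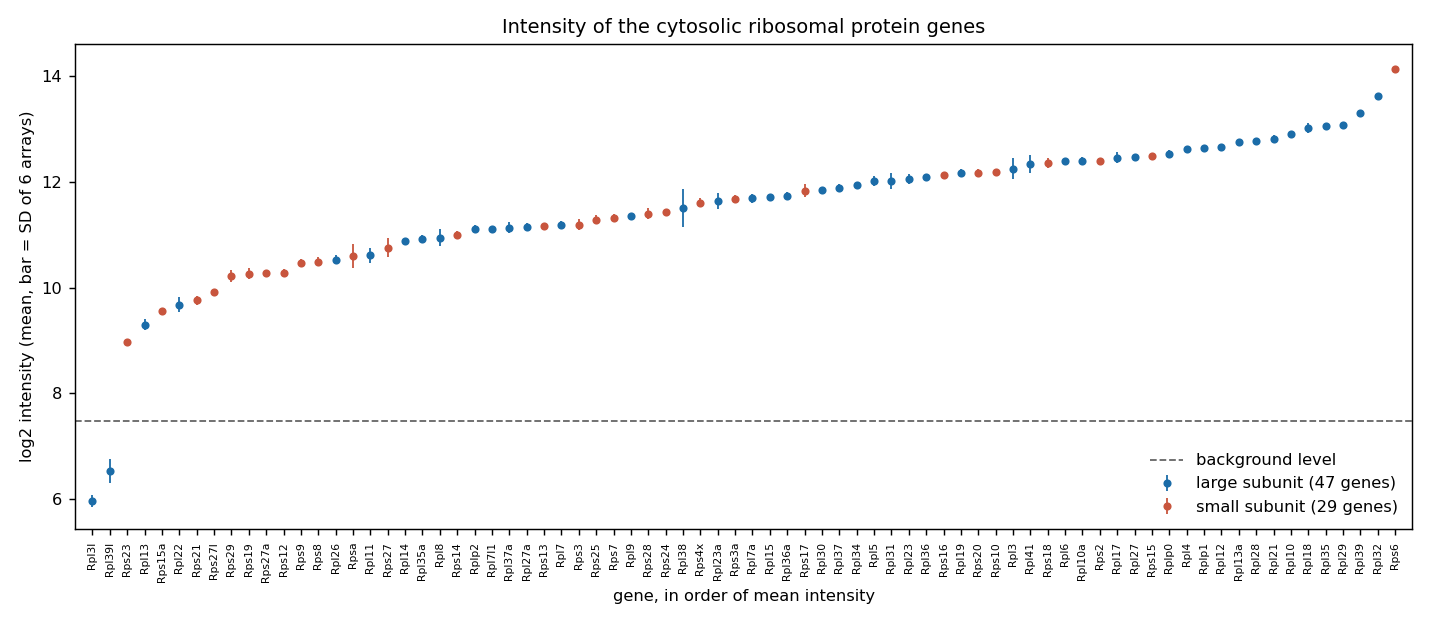
Mean log2 intensity of 76 of the 79 genes (points) with the SD over 6 arrays (bars), ordered by mean and coloured by subunit, with the background level of 7.48 as a dashed line. Rpl3l and Rpl39l lie below the line, and Rpl38 and Rpsa have wide bars.

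The highest level was that of Rps6, the small subunit protein phosphorylated by S6 kinases, at 14.13 ± 0.063 (log2 intensity, SD, n = 6). Rpl32 was at 13.62 ± 0.045. Rpl39, a very small protein of the exit tunnel, was at 13.29 ± 0.069, and Rpl29 was at 13.08 ± 0.037. At the lower end of the genes above background, Rps23, a decoding site protein, was at 8.97 ± 0.050. Rpl13 was at 9.29 ± 0.10 and Rps15a at 9.55 ± 0.053.

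The 2 genes below background were paralogues. Rpl3l, which replaces Rpl3 in striated muscle, had a mean of 5.96, with values from 5.82 to 6.08. Rpl39l, known for its expression in testis, had a mean of 6.53, with values from 6.13 to 6.74. Their parents gave strong signal, Rpl3 at 12.25 and Rpl39 at 13.29. The other paralogues were well above background. Rpl7l1, a relative of Rpl7, was at 11.12 ± 0.030, against 11.18 ± 0.079 for Rpl7. Rps27l, a p53 target, was at 9.92 ± 0.053, against 10.75 ± 0.18 for Rps27.

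Over the 6 arrays each paralogue was set against its parent by Pearson's r and a two-sided exact permutation test over all 720 pairings. None of the 4 pairs passed an adjusted p of 0.05. For Rpl3l and Rpl3, r was 0.80 and rho 0.94, with an exact permutation p of 0.0444 for r and 0.0167 for rho, and after Benjamini-Hochberg adjustment over the pairs 0.178 and 0.0667. Rpl3l is below background, and r was 0.54 once the 2 arrays with the most distant Rpl3 values were left out. For Rpl7l1 and Rpl7, r was 0.64 and rho 0.77 (exact permutation p of 0.186 and 0.103, adjusted 0.267 and 0.206), and r was 0.93 without the 2 farthest arrays. For Rpl39l and Rpl39, r was 0.57 and rho 0.54 (exact permutation p of 0.2 and 0.297, adjusted 0.267 and 0.297), with r at 0.38 without the 2 farthest. For Rps27l and Rps27, r was 0.44 and rho 0.54 (exact permutation p of 0.379 and 0.297, adjusted 0.379 and 0.297), with r at 0.46 without them. With each array centred on its median, Rpl7l1 and Rpl7 passed (r = 0.89, exact permutation p adjusted 0.0167), and without replicate 7 Rpl3l and Rpl3 passed (r = 0.999, exact permutation p adjusted 0.0333). The smallest adjusted p that r could give for a single pair was 0.00556 with all 6 arrays. With an array left out there are fewer pairings, and 0.0333 is then the smallest.

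Most members varied little over the arrays. The median SD was 0.072 on the log2 scale, 0.071 in the large and 0.072 in the small subunit, and on linear intensities the SD was a median of 4.99% of the mean. In 59 of the 79 genes the highest array was less than 1.2-fold above the lowest. The median SD was 0.076 over all genes above background, and 0.064 over the 6880 genes between the lowest and the highest member above background. Among the 399 genes at or above the median member level it was 0.056, which is below the median of the members. The smallest SDs were those of Rps2, a protein at the messenger RNA entry, at 0.020, of Rpl7l1 at 0.030, of Rpl12 and Rpl29 at 0.037, and of Rpl10 at 0.039. Rps2 stayed between 12.38 and 12.43, a 1.03-fold span. The order of these genes depended on the scaling of the arrays. With each array centred on its median, the SD was 0.042 for Rps2, 0.039 for Rpl7l1 and 0.036 for Rpl10. It was then 0.054 for Rpl12 and 0.048 for Rpl29. For Rps2 it was 0.025 with quantile normalization and 0.026 with a lowess correction.

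Only 3 of the 77 members above background had an SD over 0.2, or 3.9%, against 4.15% of all genes above background. These were Rpl38, Rpsa and Rpl3. Rpl38, a large subunit protein known for its part in the translation of Hox messenger RNAs, had the largest SD of the members, 0.357. Its log2 intensities were 11.81, 11.19, 11.98, 11.23, 11.17 and 11.67 in replicates 2, 4, 5, 6, 7 and 8. Replicates 2, 5 and 8 were high and 4, 6 and 7 were low, with no value between 11.23 and 11.67, and the highest was 1.76-fold above the lowest.

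Rpl3, a protein close to the peptidyl transferase centre, was at 12.48, 12.17, 12.53, 12.05, 12.14 and 12.12 in the same order of arrays, with an SD of 0.201. It was high in replicates 2 and 5 only. Rpsa, the small subunit protein also known as the laminin receptor, was at 10.59, 10.55, 11.06, 10.47, 10.44 and 10.49. It was high in replicate 5 alone, and its SD of 0.231 was 0.060 without that array. Rps27 was at 10.45, 10.80, 10.76, 10.91, 10.65 and 10.95, with an SD of 0.183 and its lowest value in replicate 2. By Dixon's ratio, an outer array's gap to the next value as a share of the gene's range, 1 array stood apart in 6 of the 77 members above background (7.79%), against 6.98% of all genes above background.

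Rpl41, the smallest ribosomal protein, took the opposite course to Rpl38. Its values were 12.16, 12.50, 12.21, 12.52, 12.48 and 12.19, so that replicates 4, 6 and 7 were high and 2, 5 and 8 low. Over the 6 arrays r between Rpl38 and Rpl41 was -0.94, a description of a pair chosen after its values were seen. Rpl38 varied with Rpl3 (r = 0.83) and with Rpl8 (r = 0.84).

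**Figure D2:**
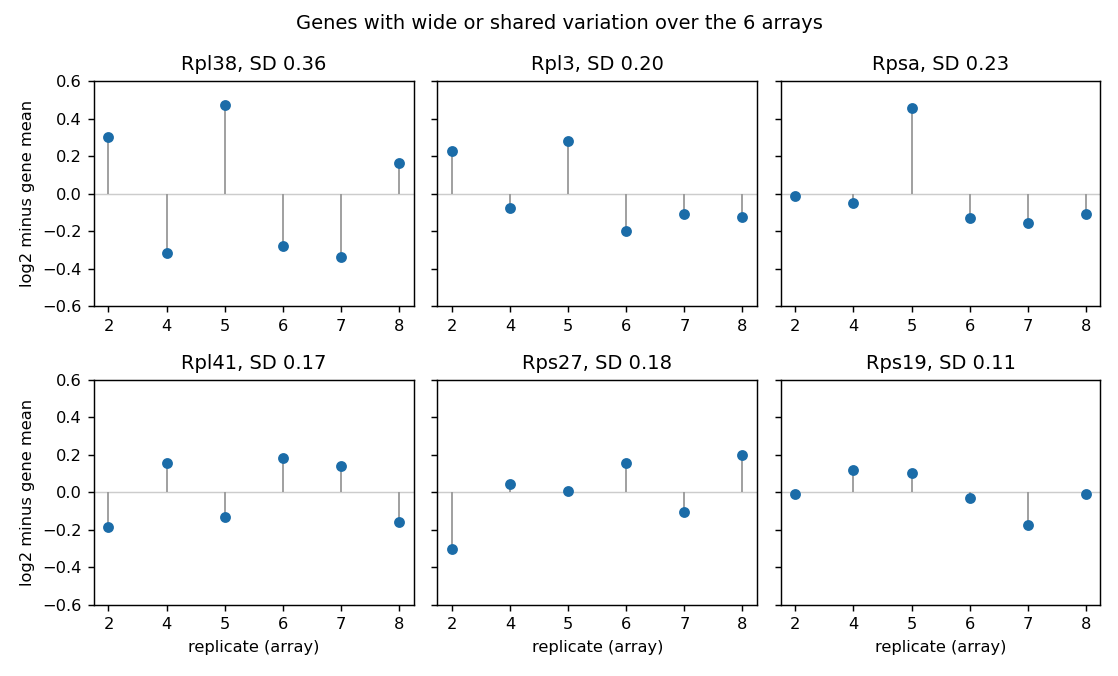
Log2 intensity minus the gene's own mean for Rpl38, Rpl3, Rpsa, Rpl41, Rps27 and Rps19 in each array (points), with the SD over 6 arrays in each title. Rpl38 is high in replicates 2, 5 and 8 where Rpl41 is low, Rpsa is high in replicate 5 alone, and Rps19 is lowest in replicate 7.

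The group mean differed by a small amount between arrays, and not every gene followed it. The mean over all 79 was 11.51, 11.55, 11.57, 11.53, 11.46 and 11.52 in replicates 2, 4, 5, 6, 7 and 8, a range of 0.106 on the log2 scale. Replicate 7 was the lowest for both subunits. The range was 0.034 for the mean over all genes of like level and 0.055 for the 73 mitochondrial ribosomal protein genes, but 0.095 for 35 ribosome assembly genes, which were highest in replicate 4 and lowest in 6, and 0.086 for all genes of the table, which were lowest in replicate 8. The range of 0.106 for the members fell to 0.0521 without replicate 7.

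Counted gene by gene, 36 of the 77 members above background had their lowest value in replicate 7, or 46.8%, against 17.9% of all genes above background. No member had its highest value there, against 12.3% of all genes. The highest value was in replicate 4 for 26 of the 77 members (33.8%, against 14.7% of all genes) and in replicate 5 for 23 (29.9%, against 20.3%). The median deviation of a member from its own mean was -0.059 in replicate 7 and 0.036 in replicate 4. For all genes of like level it was -0.014 and 0.0047 in these arrays. Among the 399 genes at or above the median member level it was 0.0062 in replicate 7 and -0.014 in replicate 4.

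Marker lists of other cells also differed between arrays. The mean of the 7 proliferation genes ran from 10.48 in replicate 2 to 10.56 in replicate 7. Replicate 7 was likewise the highest array for the 6 glial markers (7.80 to 8.02), the 7 non-neural markers (7.58 to 7.90) and the 5 blood markers (6.88 to 7.06), and replicate 8 was the lowest array for the glial and non-neural markers. The 5 progenitor and the 6 pluripotent markers were highest in replicate 6 (9.64 and 7.78) and lowest in replicates 2 (9.52) and 8 (7.58). The motor neuron mean was highest in replicate 8 (9.34) and lowest in replicate 4 (9.11). The means of the blood, non-neural and pluripotent lists include genes below background. So do those of the glial list, with Aqp4, and of the progenitor list, with Pax6. The mean over all genes was itself lowest in replicate 8, at 8.16. The blood markers Hbb-b1, Ptprc and Alas2 were below background, and Cd68 was above it, at 8.31. The part of these differences in the ribosomal protein values was not tested.

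**Figure D3:**
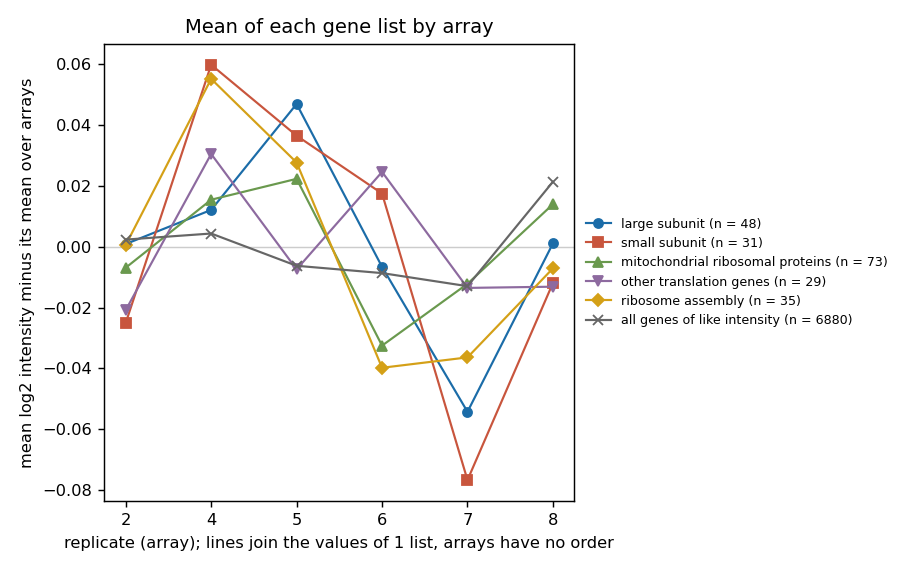
Mean log2 intensity of each gene list in each array, minus its mean over the 6 arrays. The large and small subunit lists are lowest in replicate 7 and span 0.101 and 0.136, ribosome assembly genes span 0.095, and all genes of like intensity span 0.034.

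The mean of the large subunit was 11.72, 11.73, 11.76, 11.71, 11.66 and 11.72 over the arrays, and that of the small subunit 11.20, 11.28, 11.26, 11.24, 11.15 and 11.21. The large minus the small subunit mean was 0.49 ± 0.029 (log2, SD, n = 6), from 0.44 in replicate 4 to 0.52 in replicate 2. Over the 6 arrays the subunit means had r = 0.81 and rho = 0.77, which are scores over members and have no p. The relation rested on few arrays, with r at 0.57 without replicates 5 and 7, the 2 farthest from the median, and at 0.49 without replicate 7 alone. With medians over members in place of means r was 0.34.

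The genes of the small subunit varied together more than those of the large subunit as measured by pairwise r, a difference that was not tested. The mean r over pairs of small subunit genes was 0.33, over pairs of large subunit genes 0.083, and over mixed pairs 0.18. Over all pairs of members it was 0.17, against 0.0028 for all genes above background, 0.044 for genes of like level, and 0.036 for mitochondrial ribosomal proteins. The ribosome assembly genes had a mean pairwise r of 0.161, close to that of the members, and over the 6 arrays their mean had r of 0.75 with the member mean. The value of 0.17 fell to 0.087 without replicate 7. Genes of 1 array share its RNA, labelling and scaling, so these correlations are descriptions.

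Against the mean of the other members, 16 of the 77 members above background had r over 0.8, or 20.8%, against 3.12% of all genes above background. They were 10 small and 6 large subunit genes. Without replicate 7 the count was 9. At the other end, 19 of all 79 genes had r of 0 or less. They were 17 of the large subunit, the paralogues below background included, and 2 of the small subunit, Rps6 among them.

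**Figure D4:**
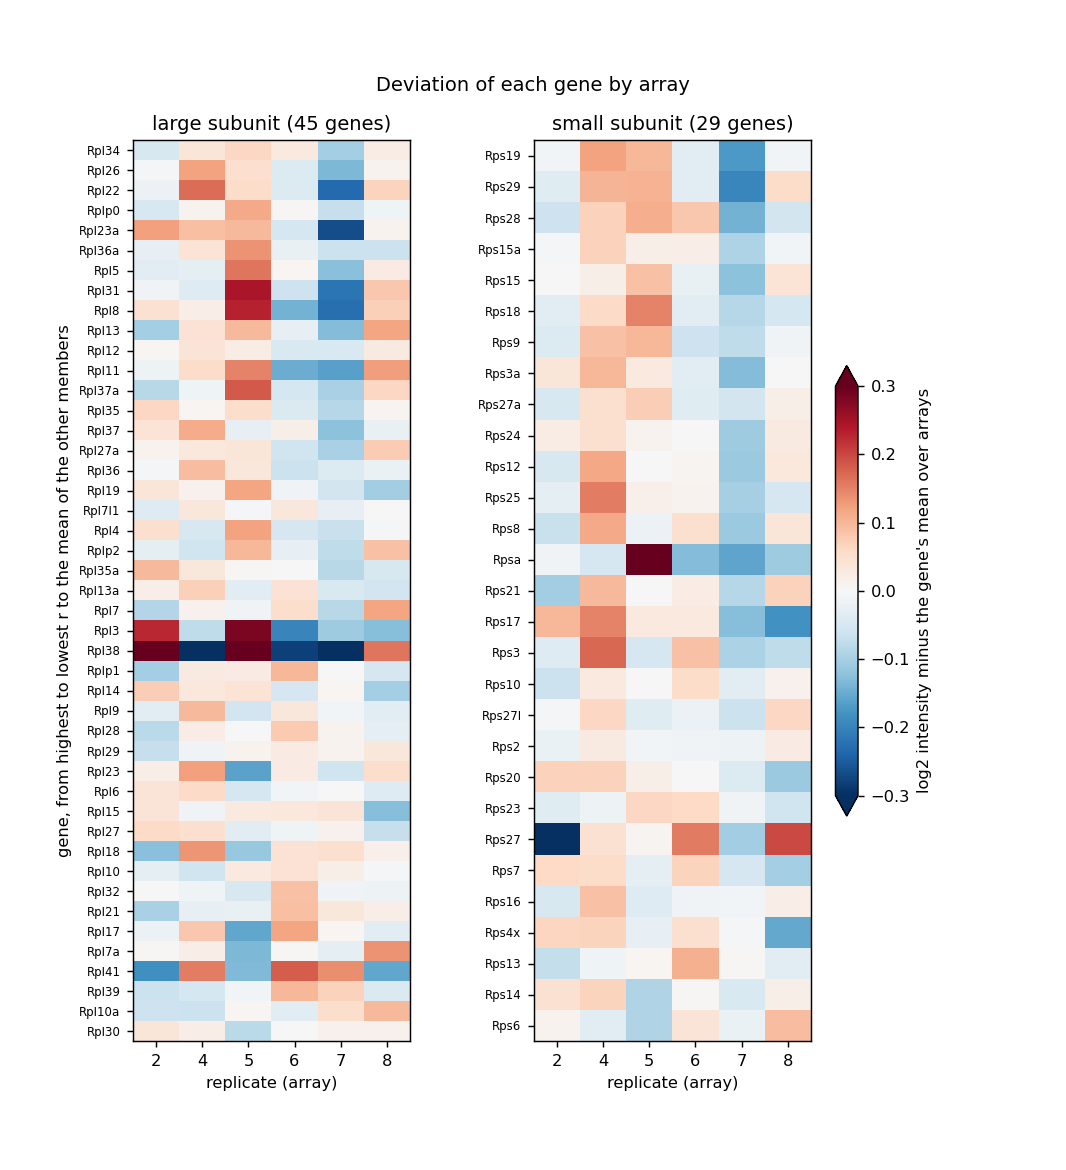
Log2 intensity of 74 of the 77 genes above background minus the gene's own mean, by array, for 45 large and 29 small subunit genes, ordered from the highest to the lowest r to the mean of the other members (red above, blue below the mean, colours end at 0.3). Replicate 7 is blue for most genes at the top of both panels, and the lower part of the large subunit panel lacks this pattern.

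Rps19, the gene most often mutated in Diamond-Blackfan anaemia, followed the group most closely, with r of 0.967. Its values were 10.26, 10.39, 10.37, 10.23, 10.09 and 10.26, highest in replicates 4 and 5 and lowest in replicate 7. Rps29 had r of 0.941, and it was at 10.18, 10.32, 10.32, 10.18, 10.02 and 10.27. Rpl34 (r of 0.921) and Rps28 (r of 0.899) came next. The lowest r were those of Rpl30 (-0.541), Rpl39 and Rpl10a (both -0.434) and Rps6 (-0.358). Rpl39 was highest in replicates 6 and 7, at 13.39 and 13.36, and Rps6 in replicate 8, at 14.22.

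Proteins with a shared place on the ribosome were compared as groups. The 9 measured proteins of the small subunit head, among them Rps15, Rps18, Rps19, Rps28 and Rps29, had a mean pairwise r of 0.54. Of the 9, 5 had r over 0.8 to the other members. Their mean was 11.66 in replicate 4 and 11.46 in replicate 7, a range of 0.202. Rpl5 and Rpl11, which bind 5S ribosomal RNA and can restrain Mdm2, had r of 0.72 with each other, and both were highest in replicate 5. The 4 proteins of the stalk and its base, Rplp0, Rplp1, Rplp2 and Rpl12, which recruit elongation factors, had a mean r of 0.25.

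The 10 proteins around the exit tunnel had a mean r of 0.23, with Rpl22, Rpl23a and Rpl26 over 0.8 to the other members and Rpl39 and Rpl17 below 0. The 4 proteins at the messenger RNA entry and decoding site had a mean r of 0.22. The 3 measured at the messenger RNA exit had 0.38. The 9 genes on the list used for Diamond-Blackfan anaemia, which is not a full set, had 0.43, with 3 over 0.8. Rps27a, which encodes a ubiquitin fusion, had r of 0.83 to the other members, at 10.28 ± 0.054.

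Other genes of protein synthesis were set against the member mean, where r over 0.8 was reached by 3.12% of all genes above background. Of 29 translation genes outside the naming rule, 2 had r over 0.8 to the member mean, the elongation factor subunit Eef1d (0.86) and Naca (0.81), which guards the emerging chain. Eef1a1, the main elongation factor, stayed at 13.96 ± 0.014. Gnb2l1, the small subunit scaffold also called Rack1, was at 12.80 ± 0.039 with r of 0.78. Of 35 ribosome assembly genes, 3 passed 0.8, the nucleolar proteins Nop2 (0.90), Nop56 (0.88) and Gnl2 (0.81). Of the 73 mitochondrial ribosomal protein genes 2 did. The difference between these shares and that of the members was not tested.

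Level and covariation were weakly related across the members, with Pearson's r of -0.19 and Spearman's rho of -0.35 between mean level and r to the other members. Genes are the points here, and they are not independent. Members with the pyrimidine start had a median r to the others of 0.43, and those matched without it 0.54. The genome holds many near-identical processed copies of ribosomal protein genes, and the methods name no step that separates shared signal, so part of an intensity can come from such copies.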

How the data were processed

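Embryoid bodies of 1 group were profiled on 6 Affymetrix mouse exon arrays. The deposited values are linear intensities, 1 per gene and array, which the authors obtained by Robust Multi-array Averaging in Aroma Affymetrix as the mean over the exons of a gene. The submitters' processing notes also name Affymetrix Expression Console. Which arrays were normalized together and the genome build are not given in the sources used here, and 0 columns came from other samples.

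No pseudocount was added before intensities were put on the log2 scale (Python 3.11.15, numpy 2.4.6, pandas 2.3.3, scipy 1.17.1). Errors are the SD over 6 arrays. The methods describe separate serum samples, and assays run on batches of embryoid bodies, so the SD can include differences between sera, cultures and assays. The batch of each array is not given in the sources used here. Of the 79 names, 78 were current RefSeq symbols and 1 a synonym. Rps26 and Rpl24 were not analysed here.

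Members and gene lists were chosen with earlier results of these data known. Named genes were those at the extremes of SD, level or r, paralogues and their parents, genes with 1 array apart, and 12 fixed for their role. Others, including Rpl41 and Rpl8, were named after their values were seen. Values of some single genes are not reported here, though they enter the counts and means. A planned comparison of paralogue proteins was not run. Alternatives were median centring, quantile normalization, a lowess correction (span 0.3), other member sets, medians, a background at the 99th percentile and leaving out each array. The correlation and spread computations were tested on simulated data.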

Additional observations from a re-analysis of the deposited data

Results flagged for a closer look

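In 6 of 82 sets of values screened (79 genes and the means of all members and of each subunit), 1 array stood apart by Dixon's ratio, its gap to the nearest array over the whole range (at the 95% critical value for 6 arrays). Chance picks out about 1 in 20 sets, or 4.1 of 82. All 6 were genes above background, 6 of 77, or 7.79%, against 6.98% of all genes above background. Of these, 5 are described. Rpsa was highest in replicate 5 with a ratio of 0.760, at 11.06 against 10.44 to 10.59 in the other arrays. Rpl30 was lowest in replicate 5, with a ratio of 0.687, at 11.77 against 11.85 to 11.89. Rpl15 was lowest in replicate 8, with a ratio of 0.709, at 11.59 against 11.70 to 11.75. Rps24, mutated in Diamond-Blackfan anaemia, was lowest in replicate 7, with a ratio of 0.680, at 11.33 against 11.43 to 11.48. Rpl32 was highest in replicate 6, with a ratio of 0.649, at 13.70 against 13.57 to 13.62. Except for Rpsa, these gaps were small in absolute terms, and a ratio measures the gap against the range of the same gene.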

How the results depend on the processing

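With 6 arrays of 1 group, single arrays weigh heavily. The 77 genes above background stayed 77 under every alternative run. The median SD stayed between 0.0661 and 0.0774. The mean pairwise r ran from 0.0871 without replicate 7 to 0.219 with median centring. The r of the subunit means was 0.336 with medians over members, and 0.492 (without replicate 7) to 0.892 when arrays were left out in turn. The SD of the large minus small difference was 0.0751 with medians over members and 0.0199 (without replicate 4) to 0.0323 without 1 array. The range of the member mean was 0.0521 (without replicate 7) to 0.106 when arrays were left out in turn, and up to 0.120, with median centring, under the other alternatives. Between 9 (without replicate 7) and 21 members had r over 0.8. The count of paralogue pairs past an adjusted p of 0.05 was 1 with median centring (Rpl7l1 and Rpl7, r = 0.89, exact permutation p adjusted 0.0167) and 0 to 1 when arrays were left out (Rpl3l and Rpl3 without replicate 7, r = 0.999, exact permutation p adjusted 0.0333). The cause was not tested. Of 324 alternative SDs of 36 named genes, 27 moved by more than the jackknife error. Of these 27, 17 were among the 108 values under another scaling, such as Rps2 (0.042 with median centring). The rest came from leaving out 1 array, such as Rpl15 (0.020 without replicate 8) and Rpl30 (0.013 without replicate 5). No paired analysis was possible because the labels give 1 group. Signal over background limits Rpl3l and Rpl39l.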

Other observations

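A few rows named for copies of ribosomal protein genes lay outside the naming rule. Rpl31-ps12 was well above background at 10.87 ± 0.14 (log2, SD, n = 6) and varied with Rpl31 over the arrays (r = 0.84). Rpl31-ps21 was at 8.01 ± 0.098 with r of 0.065, Rpl31-ps20 was below background at 6.74, and Rps15a-ps1 and Rps15a-ps2 were below background at 4.11 and 4.43. Rps4y2 was at 8.89 ± 0.068.

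By a rule chosen after values were seen, genes above background with an SD over 0.2 (530 genes) were searched for a course like that of Rpl38. Over the 6 arrays, 10 had r of 0.9 or more and 3 of -0.9 or less. Lbr, a protein of the inner nuclear membrane, had r of 0.98, at 10.01, 9.51, 10.18, 9.38, 9.43 and 9.95 in replicates 2, 4, 5, 6, 7 and 8. Uqcr11, a subunit of respiratory complex III, had r of 0.98 and spanned 4.51-fold, from 7.98 in replicate 6 to 10.15 in replicate 5. Ndufa11, of complex I, had r of 0.95. Mrps21, a mitochondrial ribosomal protein, had r of -0.98, at 9.81, 10.48, 9.72, 10.61, 10.69 and 10.12, and Yipf2 had r of -0.96. Hist1h2bk, a histone gene, had r of -0.94 and spanned 4.35-fold, from 10.69 in replicate 2 to 12.81 in replicate 6. With 6 arrays and many genes searched, such values of r are a description of these arrays.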
